A study of Homo sapiens with 3 samples.

Results

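SOX4 sites were examined at 8 genes of the mTOR kinase complexes in BT549 cells. The 8 genes are RICTOR, MAPKAP1, PRR5, MTOR, MLST8, DEPTOR, RPTOR and EIF4EBP1, among 20037 protein-coding genes on the assembled chromosomes. They form a fixed list of complex genes that was chosen by the measured positions of summits, since it was built around the sites already known at RICTOR. For each gene, every ChIP-seq summit inside it or within 50 kb of either end was collected, which gave 13 of the 7511 summits of the series.

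The study profiled SOX4 by chromatin immunoprecipitation and sequencing (ChIP-seq). BT549, the cell line used, was derived from a triple-negative breast cancer and was at passage 5 per the labels. Its 3 libraries form 1 group, named replicates 1, 2 and 3 after their titles. All carry the same cell line, antibody and fixation (DSG, then formaldehyde), and no treatment, second genotype, input or IgG library was analysed here. Separate cultures are not named in the labels, so the spread between libraries may be technical, and gene expression was not measured, so neither the cell type nor the activity of the 8 genes could be checked here.

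The kinase mTOR works in a pair of complexes that share MTOR and MLST8. In mTORC1 the scaffold RPTOR brings in substrates such as EIF4EBP1, the repressor of cap-dependent translation, and the complex couples nutrients to protein synthesis. In mTORC2 the scaffold RICTOR, with MAPKAP1 (also called SIN1) and PRR5, directs the kinase to AKT, SGK and PKC, which act in survival, metabolism and the cytoskeleton. DEPTOR binds and inhibits both complexes. SOX4 is a high-mobility-group transcription factor that is active in development and in many carcinomas.

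The deposited lists held 1368, 1713 and 4430 summits in replicates 1, 2 and 3, so the third was 3.24 times as long as the first. A summit is the single base at which a peak is highest. Each has a score, the authors' own −log10 of a p or q value, with medians of 6.12, 5.57 and 5.58, and a rank within its list is given below as a percentage of that list's length, with low values for high scores. Sequencing depth is unknown, so a missing summit means only that none was called.

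RICTOR was the 1 member with a summit of every library at its own gene end. The bases before its start are shown first because the summits of replicates 1 and 2 fall within them. Those before the starts of MAPKAP1, MTOR and RPTOR stand beside them as members whose sequence there holds no summit, and TARDBP, the nearest gene to MTOR with summits of 3 libraries, is added for comparison. Each run is the 250 bases before the annotated start, from RefSeq on GRCh38.p14, read 5′ to 3′ on the strand of the gene. Capitals in RICTOR and TARDBP mark a summit and the 10 bases on each side of it, with replicate 2 first in RICTOR and replicate 1 first in TARDBP. In RPTOR they mark the letters ACAAT.
RICTOR, chr5:39074400-39074649, minus strand: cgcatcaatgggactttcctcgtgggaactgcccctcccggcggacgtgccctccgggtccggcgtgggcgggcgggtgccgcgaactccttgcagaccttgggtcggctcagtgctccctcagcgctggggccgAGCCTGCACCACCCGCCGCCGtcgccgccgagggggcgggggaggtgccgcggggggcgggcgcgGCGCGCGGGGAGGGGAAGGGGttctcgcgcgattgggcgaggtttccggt
MAPKAP1, chr9:125707209-125707458, minus strand: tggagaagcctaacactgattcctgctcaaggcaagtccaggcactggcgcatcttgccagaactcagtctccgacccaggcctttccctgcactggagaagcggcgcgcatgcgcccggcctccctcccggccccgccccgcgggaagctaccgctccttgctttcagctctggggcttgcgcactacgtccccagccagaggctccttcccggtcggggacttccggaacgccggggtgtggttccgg
MTOR, chr1:11262552-11262801, minus strand: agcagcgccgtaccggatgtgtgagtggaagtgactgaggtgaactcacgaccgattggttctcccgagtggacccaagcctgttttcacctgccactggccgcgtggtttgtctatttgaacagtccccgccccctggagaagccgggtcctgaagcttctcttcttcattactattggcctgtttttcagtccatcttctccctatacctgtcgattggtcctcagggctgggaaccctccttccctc
RPTOR, chr17:80544588-80544837, plus strand: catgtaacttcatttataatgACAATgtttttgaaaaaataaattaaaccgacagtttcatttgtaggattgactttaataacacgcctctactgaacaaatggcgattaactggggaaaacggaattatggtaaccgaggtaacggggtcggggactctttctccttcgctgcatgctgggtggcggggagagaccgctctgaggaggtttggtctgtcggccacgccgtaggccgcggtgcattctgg
TARDBP, chr1:11012404-11012653, plus strand: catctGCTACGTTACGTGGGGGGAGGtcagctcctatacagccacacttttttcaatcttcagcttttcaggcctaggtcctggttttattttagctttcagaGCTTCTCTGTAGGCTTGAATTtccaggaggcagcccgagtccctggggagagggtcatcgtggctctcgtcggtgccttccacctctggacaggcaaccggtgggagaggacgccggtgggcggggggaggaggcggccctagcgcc

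RICTOR lies on chromosome 5 from 38937920 to 39074399, on the minus strand, so its start is at the higher coordinate. Replicate 1 placed its summit at 39074439, 40 bp before the start, with a score of 16.1. Replicate 2 placed its summit at 39074504, 105 bp before the start, with a score of 9.55. The summit of replicate 3 lay on the other side, at 39074248, 151 bp inside the gene, with a score of 9.75. All 3 lay within 256 bp of each other around the start.

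The RICTOR summits stood high in every list. They ranked 147th of 1368 in replicate 1 (10.7% of the list), 288th of 1713 in replicate 2 (16.8%) and 355th of 4430 in replicate 3 (8.01%). The first 2 libraries agreed within 65 bp, while replicate 3 was 191 bp from replicate 1 and 256 bp from replicate 2. With a gap of at most 200 bp between neighbouring summits, the 3 form 1 region through the summit of replicate 1. With a gap of at most 100 bp the region keeps only replicates 1 and 2. No other summit of any library lay inside the 136 kb of RICTOR or within 50 kb of it.

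**Figure D1:**
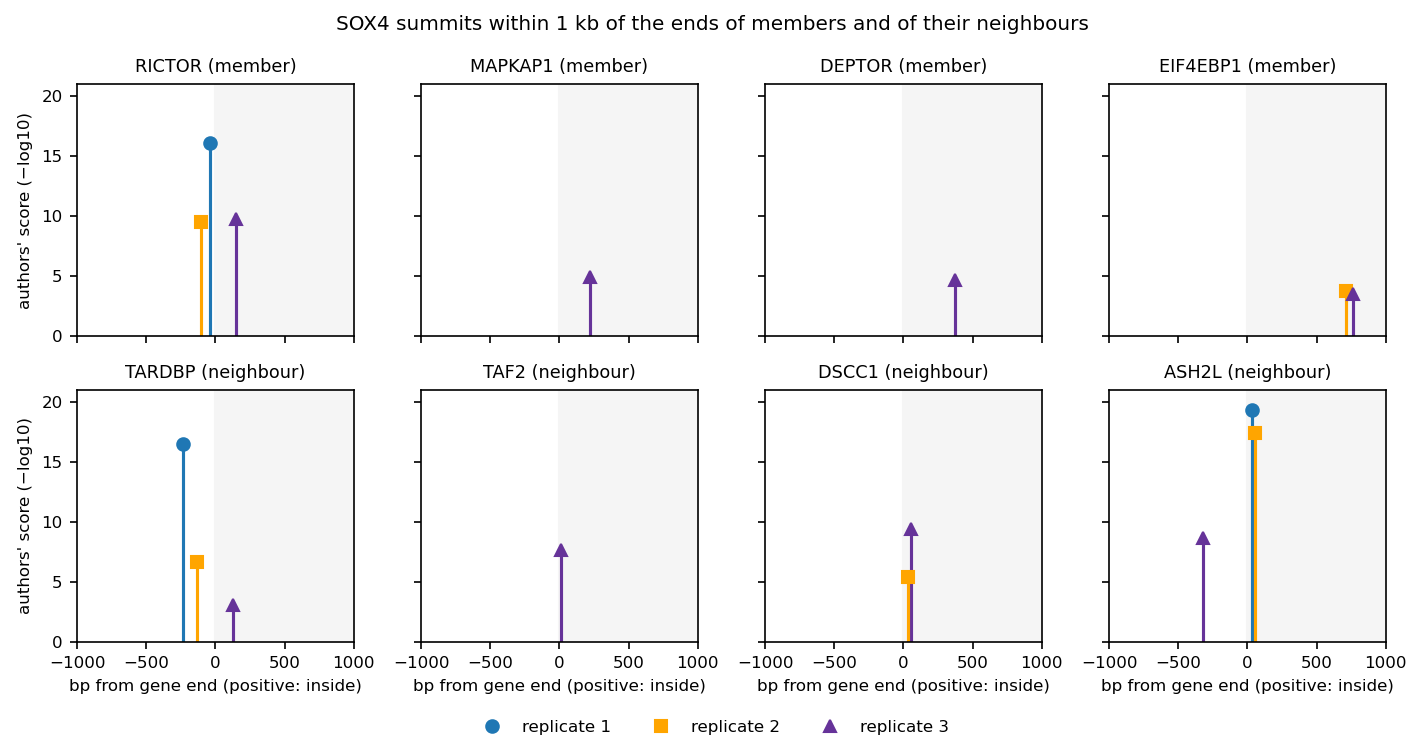
SOX4 summits within 1 kb of the gene end they lie at, for the 4 members with such summits (top) and for 4 neighbouring genes (bottom). The x axis gives base pairs from the gene end, with positive values inside the gene (grey), the y axis the authors' score, and colour and shape the library. The RICTOR summits, with scores of 9.55 to 16.1, stand on both sides of the start, while those of MAPKAP1, DEPTOR and EIF4EBP1 score 3.50 to 4.88 and lie inside the gene.

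The other mTORC2-specific members, MAPKAP1 and PRR5, had 1 summit between them. MAPKAP1, a subunit gene whose product helps the complex bind its substrates, had this 1 summit, from replicate 3. It lay 220 bp into the gene from its start (chromosome 9, 125706988) and scored 4.88, which ranked 2816th of 4430 (63.6% of the list). Replicate 1 came no nearer to MAPKAP1 than 2532 kb and replicate 2 no nearer than 496 kb. PRR5, also called PROTOR1, had no summit within 50 kb. Its nearest were 676 kb, 2589 kb and 427 kb away in replicates 1 to 3. The mTORC2-specific members thus ranged from all 3 libraries (RICTOR) through 1 (MAPKAP1) to 0 (PRR5).

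Among the genes shared by both complexes, the kinase gene MTOR and the subunit gene MLST8 had no summit inside them or within 50 kb. For MTOR the nearest summits of replicates 1, 2 and 3 were 94.1, 94.02 and 93.8 kb away. These 3 summits, which the 50 kb limit leaves out, lay at the start of TARDBP, which encodes the RNA-binding protein TDP-43. Their scores were 16.5, 6.67 and 3.04, at 235 and 137 bp before the TARDBP start in replicates 1 and 2 and 125 bp inside it in replicate 3. In replicate 3 that summit ranked 4401st of 4430. MLST8, a small gene of 4.0 kb on chromosome 16, had 8 other coding genes within its window. None of the 8 had a summit within 1 kb of an end, beside 9.95% of coding genes on that chromosome. The nearest summit to MLST8 was 250.2 kb away, in replicate 3.

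DEPTOR had 4 summits in reach, and 1 of them was at its own end. That summit, of replicate 3, lay 376 bp into the gene from its lower coordinate (chromosome 8, 119874098), with a score of 4.69 (rank 3196 of 4430). A pair of summits at 17.9 kb, of replicate 2 (score 5.39) and replicate 3 (score 9.45), were 23 bp apart and lay 31 and 54 bp inside DSCC1, a cohesion factor gene. The last, of replicate 3 at 40.9 kb with a score of 7.64, lay 12 bp inside TAF2, a gene of the general transcription factor TFIID. The nearest replicate 1 summit was 258 kb away.

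The mTORC1 scaffold gene RPTOR, the longest member at 422 kb, had no summit inside it or within 50 kb. Its nearest summits were 2281 kb away in replicate 1, 12827 kb in replicate 2 and 1326 kb in replicate 3. EIF4EBP1 had 5 summits in reach from all 3 libraries, so RICTOR was not alone in this. A pair of these, of replicates 2 and 3, was at its own lower end on chromosome 8, at 38031246 and 38031296, 712 and 762 bp inside the gene. With scores of 3.72 and 3.50 these ranked 1555th of 1713 and 4203rd of 4430, near the bottom of both lists. The other 3 summits were 44.8 to 45.2 kb away at ASH2L, a subunit gene of histone H3 lysine methyltransferase complexes, with scores of 19.3, 17.5 and 8.69 in replicates 1 to 3. At 45.2 kb they were the farthest counted, and the nearest left out was a replicate 3 summit 92.0 kb from RICTOR, 75 bp from the start of OSMR, the oncostatin M receptor gene.

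**Figure D2:**
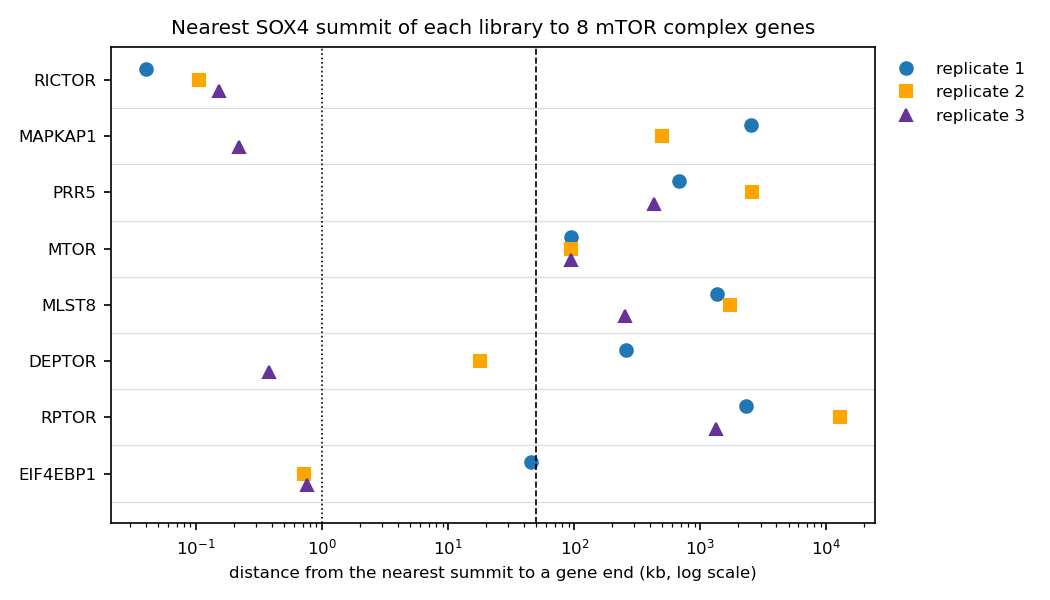
Distance from each of the 8 genes to the nearest summit of each library, measured to the nearer gene end in kb on a log axis, with a dotted line at 1 kb and a dashed line at 50 kb. RICTOR has all 3 libraries at 0.04 to 0.151 kb, whereas PRR5, MTOR, MLST8 and RPTOR have every library beyond 50 kb.

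Of the 8 members, 4 had a summit of any library inside the gene or within 50 kb, against 35.0% of all coding genes. Summits of at least 2 libraries were in reach of 3 members (RICTOR, DEPTOR and EIF4EBP1), against 10.0% of coding genes, and of all 3 libraries for 2 members, against 3.56%. Within 1 kb of a gene end the counts were 4, 2 and 1, against 15.1%, 3.2% and 0.838%. Taken singly, replicates 1, 2 and 3 had a summit within 1 kb of an end at 3.07%, 2.76% and 13.3% of coding genes, and at 1, 2 and 4 of the 8 members. The members were chosen with such values known, so these counts describe them and were not tested. All 13 summits in reach lay within 1 kb of some coding gene end, at most 762 bp away. The same share over all summits of the series is not given here, so this describes the 13 only. Of the 13, 7 were at the end of the member itself and 6 at TAF2, DSCC1 or ASH2L. Of the members, RICTOR alone had an own-end summit at or above the median score of its list. The share of all coding genes with such a summit was not counted, so this describes the members only.

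The shares also differed between chromosomes and, less so, between classes of gene length, and the part of either in the members' counts was not tested. DEPTOR and EIF4EBP1 lie on chromosome 8, which held 21.3%, 33.7% and 16.3% of the summits of replicates 1 to 3. Any library reached 72.3% of the 715 coding genes there, and all 3 libraries reached 27.1%. Within 1 kb of an end, any library was at 36.9% of these genes and at least 2 libraries at 16.4%. On chromosomes 5 and 9, those of RICTOR and MAPKAP1, any library was within 1 kb of an end at 25.8% and 20.1% of coding genes. On chromosomes 22, 17, 1 and 16 this share was 6.43%, 7.01%, 20.2% and 9.95%. On chromosome 5, the share of coding genes with summits of all 3 libraries within 1 kb of an end was 1.44% (13 of 904), and RICTOR was 1 of these 13. Among 3917 coding genes whose length was within 2 times that of RICTOR, longer or shorter, it was 1.12%. Of the 4 members without a summit in reach, PRR5 and RPTOR lie on chromosomes 22 and 17, where any library reached 19.3% and 22.5% of coding genes. MTOR and MLST8 lie on chromosomes 1 and 16, where the shares were 45.9% and 35.5%. Among genes within 2 times their own length, the shares were 39.8% for PRR5, 37.2% for RPTOR, 40.5% for MTOR and 29.8% for MLST8.

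The start of RICTOR was rich in CpG dinucleotides, which mark CpG-island promoters. The window of 300 bases around it (250 before and 50 after the start) held 42 CpG and 74.0% G or C, and 94.2% of the 35116 RefSeq promoter windows held fewer CpG. MAPKAP1 held 28 CpG, MTOR and RPTOR 16 each, and TARDBP 17. PRR5 has 3 annotated starts with 45, 6 and 39 CpG and no summit at any of them. A link between CpG count and summits was not tested. Over all windows the median was 14 CpG. It was 12 in windows without a summit, 30.0 in those with 1 library, 29.0 with 2 and 29.5 in the 36 windows with all 3. The RICTOR window is in the class with 2 libraries, since its replicate 3 summit lies outside the window. That of MAPKAP1 is in the class without a summit for the same reason.

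Promoter windows were matched for 5 of the 8 members: RICTOR, MAPKAP1, PRR5, MTOR and RPTOR. Letters of the SOX recognition sequence were searched on both strands: AACAAAG, the shorter ACAAAG that lies within it, and also ACAAT. Of all windows, 5.20% held AACAAAG, 16.1% held ACAAAG and 27.4% held ACAAT. None of these letters occurred in the windows of RICTOR, MAPKAP1, MTOR, TARDBP or the 3 starts of PRR5. RPTOR held ACAAT once, its first base 229 bases before the start, and has no summit there. A missing match says only that these letters are not in the window.

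Across the genome, 168 coding genes had a summit of every library within 1 kb of an end, as RICTOR did. Some of them share their summits, such as MRPL57 and SKA3, so places and medians here are over genes, not separate sites. Taking the highest-scoring summit of each library within 1 kb of an end, RICTOR was 28th of the 168 in replicate 1, 33rd in replicate 2 and 37th in replicate 3. By the worse of its ranks over the 3 lists it was 10th. The medians of the 168 genes were scores of 7.15, 6.05 and 7.35 and ranks at 37.8%, 44.05% and 20.8% of the lists. At these genes replicates 1 and 2 were a median of 86.0 bp apart, replicates 1 and 3 153 bp and replicates 2 and 3 171 bp. The wider spacing of replicate 3 seen at RICTOR was thus also the median order over the 168 genes, and 41.1% of them had a larger gap between replicates 1 and 3 than RICTOR.

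The 5 genes whose ranks in the 3 lists were nearest to those of RICTOR, by Euclidean distance between the 3 percentages, were SPDL1, RC3H2, OR2T1, PCMTD1 and TMEM18. SPDL1, a kinetochore adaptor gene on the same chromosome, was nearest, with ranks at 9.36%, 17.05% and 10.6% and scores of 17.1, 9.51 and 8.95. Its summits of replicates 1, 2 and 3 lay 44, 21 and 140 bp from a gene end. RC3H2, which encodes the RNA-binding protein Roquin-2, had scores of 16.9, 12.4 and 12.6, and the olfactory receptor gene OR2T1 had 14.9, 12.4 and 12.8. PCMTD1 and TMEM18 had scores of 25.2, 8.35 and 9.37 and of 18.6, 15.9 and 8.64. ASH2L, counted for EIF4EBP1, came seventh in likeness, and TARDBP, beside MTOR, was far from RICTOR because of its low rank in replicate 3.

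**Figure D3:**
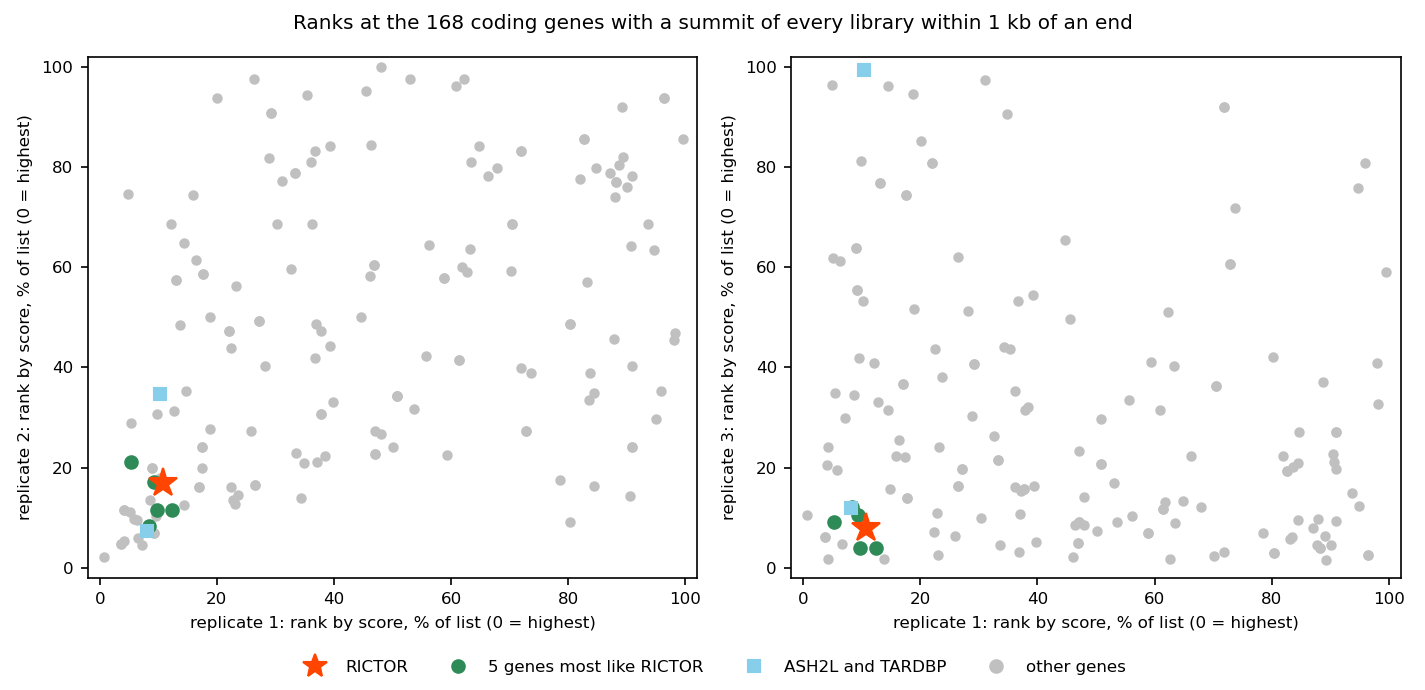
Ranks by score, as a percentage of the list (0 is the highest score), at the 168 coding genes with a summit of every library within 1 kb of an end. Replicate 2 is plotted against replicate 1 on the left and replicate 3 on the right, and each point is a gene. RICTOR (star) sits at 10.7%, 16.8% and 8.01% in replicates 1, 2 and 3 beside the 5 genes most like it, and TARDBP sits at 99.3% in replicate 3.

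The wider pathway was read from a list of 81 further genes, by summits within 5 kb of a gene end. Either end of a gene was used, and whether a summit lay nearer to another coding gene was not examined for this list. A summit of any library was found at 22 of the 81 (27.2%), against 17.8% of all coding genes. Summits of at least 2 libraries were at 4 (4.94%), against 3.91%, and of all 3 libraries at 0, against 1.07%. The list was drawn up with results of these data known, and no test was made of it. Replicate 3 gave 20 of the 22 genes, and 16 had no other library. Without replicate 3, 6 genes remained (7.41%), against 5.75% of coding genes, and with each list cut to its 1368 highest scores there were 10 (12.3%), against 8.43%. No gene of the list thus had a summit of each library within 5 kb of an end, which few coding genes have (1.07%). RICTOR has them but was chosen with its summits known and is not in the list, so no contrast with it is drawn.

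By role, the share of genes with a summit ranged from 16.7% to 40.0%, beside 17.8% of all coding genes. Roles were not compared by a test. Of the remaining parts that bind or fold the complexes, 2 of 5 had a summit. TTI2, a gene of the TTT chaperone for mTOR-like kinases, had summits of replicate 1 (score 5.74) and replicate 3 (7.75) at 649 and 600 bp from an end, and TTI1, its partner, had 1 of replicate 3 (4.14). TTI2 lies on chromosome 8.

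The growth factor arm, which runs through PI3K and AKT to the TSC complex, had 3 of 15 genes, each with a summit of replicate 3 alone. Energy sensing had 3 of 8, the AMPK subunit genes PRKAA1, PRKAG1 and PRKAB2. The regulatory subunit genes PRKAG1 and PRKAB2 had 1 summit each, of replicate 3, with scores of 5.94 and 6.06. PRKAA1, the catalytic subunit gene, had a replicate 1 summit 546 bp inside it (5.60) and a replicate 3 summit 463 bp inside it (5.69), and another of replicate 3 lay 3662 bp outside its other end (7.76).

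On the lysosome, where amino acids recruit mTORC1, 5 of 13 platform genes had a summit. RRAGA, a Rag GTPase gene, had a replicate 1 summit 38 bp before its lower end (7.56), between replicate 3 summits at 319 bp outside (3.89) and 170 bp inside (7.24). LAMTOR1 and LAMTOR5, of the Ragulator scaffold, had 1 each, of replicate 3 (5.67) and replicate 2 (4.36), and the amino acid transporter gene SLC38A9 had 1 of replicate 3 (4.72). FNIP2, a folliculin partner gene, had 1 of replicate 3 with a low score (2.93). The amino acid sensing genes had 3 of 18, all in replicate 3 alone. These included KICS2 of the KICSTOR complex, with a score of 7.23, and the leucine sensor family gene SESN1 with 9.10 and 4.94.

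Targets of mTORC1 had 5 of 16 genes and targets of mTORC2 had 1 of 6. RPS6, a ribosomal protein gene whose product is phosphorylated below mTORC1, had a replicate 1 summit 4 bp inside it (6.54), with replicate 3 summits 179 bp inside (4.26) and 228 bp outside (8.08). EIF4B, a translation initiation factor gene, had 1 of replicate 3, 243 bp inside it (7.57). SGK3, a kinase gene acting below mTORC2 on chromosome 8, had 1 of replicate 3, 7 bp inside it (5.95). The 7 other genes with a summit had 1 library each, at 287 to 3985 bp from an end and with scores of 3.27 to 7.12. Within replicate 3, the highest score over the 81 genes was 9.10 at SESN1, beside 9.75 at RICTOR. Within replicate 1 it was 7.56 at RRAGA, beside 16.1 at RICTOR, and the only one of replicate 2 was 4.36 at LAMTOR5, beside 9.55 at RICTOR. RICTOR was chosen with its summits known, so these values are descriptions.

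**Figure D4:**
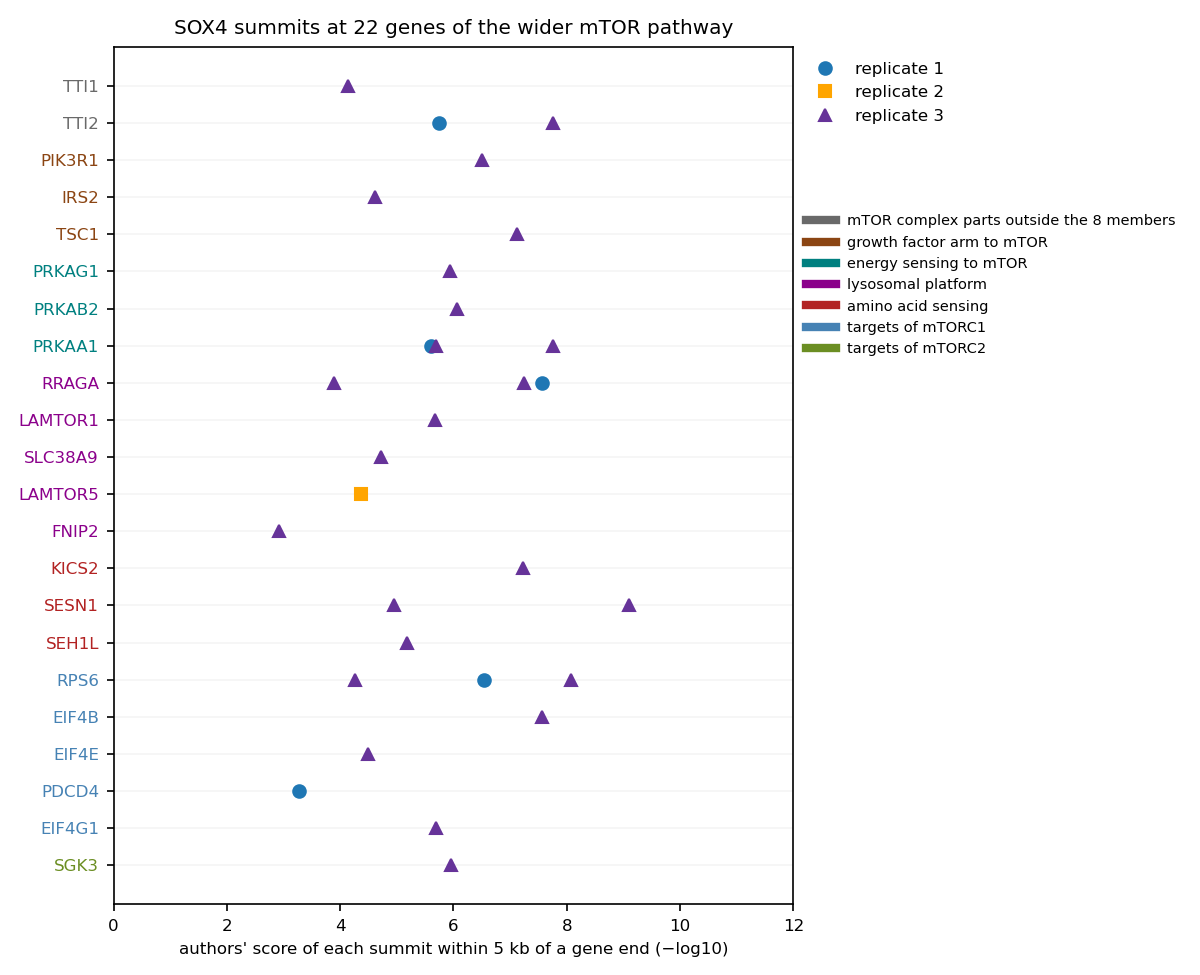
Authors' scores of the summits within 5 kb of an end at the 22 pathway genes with any, with the gene names coloured by role and the library shown by colour and shape. Most genes carry replicate 3 alone, 4 carry 2 libraries, and the highest score is 9.10 at SESN1.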

How the data were processed

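SOX4 ChIP-seq summits of 3 BT549 libraries were analysed. The authors used MACS2 with BWA and SAMtools, per the submitters' processing notes, and their versions, filters and control are not given in the sources used here. Summits were called in each library. The score that the authors deposited with each is on a −log10 scale, of either p or q, and served here only to rank and describe summits within a list. The notes name hg19, but 41 of the 55 sequence names outside chromosomes 1 to 22, X and Y carry KI270 identifiers, which belong to GRCh38, so genes were taken from a RefSeq table of GRCh38.p14. That table gives gene starts and ends, and strand came from RefSeq promoter windows. The opposite-strand windows that overlap, 3088 pairs, had complementary letters in all 3088.

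All members and all 81 pathway genes were found in the table. Some further genes of the pathway are not reported here and are left out of its counts, which for this reason depend on the genes kept. Distances are to the nearer gene end, and summits at gaps of at most 200 bp formed a region. The text names the members, the neighbours at which counted summits lie, pathway genes with a region of 2 libraries, the 12 nearest to a summit among the others, and the 5 genes most like RICTOR in rank. TARDBP and OSMR were chosen after their values were seen. The members and lists were chosen with earlier results of these data known, so no test was made. Alternatives changed the distance, gap, score threshold and list length, and left out each library. Counting was tested on simulated data, with Python 3.11.15, pandas 2.3.3, numpy 2.4.6 and matplotlib 3.10.9.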

Additional observations from a re-analysis of the deposited data

How the results depend on the processing

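Of 38 alternative settings, 30 left their count within 1.5 times of the value reported. Some of the 30 were fixed in advance: RICTOR has 1 summit of each library, so leaving out any library had to give 2. The 30 also include the gap of 100 bp, at which the RICTOR region kept 2 libraries. The number of members with summits of all 3 libraries, 2 at 50 kb, was 1 (RICTOR) at 1 kb, 5 kb and 10 kb, 3 at 100 kb, where MTOR joined through TARDBP, and 0 with the gene span only. The count of RICTOR summits fell from 3 to 1 with the gene span only, since 2 of them lie before the start. The 22 pathway genes became 14 once the lower-scoring part of each list, below its median, was dropped and 10 at equal list lengths, and ranged from 6 to 21 when 1 library was left out, with the 6 found without replicate 3. All of these settings hold fewer summits, and the share of all coding genes above the median score was not counted. With the distance at 1, 10 and 50 kb, the pathway genes numbered 21, 25 and 33 of 81. Of all coding genes, 15.1% had a summit within 1 kb of an end and 35.0% had 1 inside or within 50 kb. Members with a summit of any library numbered 3 to 5 in every setting run. No paired analysis was possible because the series has 1 group. Depth, peak width and a control were not used here, so a summit that is missing in the shorter lists of replicates 1 and 2 cannot be told apart from one below detection.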

Other observations

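At RRAGA and RPS6 a replicate 1 summit lay between a pair of replicate 3 summits around a gene end. Over all coding genes, 597 had replicate 3 and another library within 1 kb of an end, 79 of these had at least 2 replicate 3 summits, and in 46 of the 79 a summit of another library lay between them. Counted in the same way, replicate 1 had a pair at 14 of 437 genes, with another library between in 14, and replicate 2 had a pair at 8 of 418, with another between in 7. The list of replicate 3 is 3.24 times as long as that of replicate 1, and the counts were not compared by a test. Neighbouring genes, such as HNRNPK and RMI1, can hold the same summits, so these counts are of genes and not of separate sites. Summits of replicates 1 and 2 that lay within 1 kb of each other were a median of 85.0 bp apart near coding gene ends and 59.0 bp apart elsewhere. For replicates 1 and 3 the medians were 135 and 89.0 bp, and for replicates 2 and 3 they were 144.5 and 72 bp. These values are descriptions, and their order was not tested.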
